A study of Mus musculus with 4 samples.

Results

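The genes described here run the cell division cycle: cyclins and cyclin-dependent kinases with their inhibitors, the retinoblastoma proteins and E2F factors, the helicase and licensing factors that start DNA replication, the enzymes that supply DNA precursors, and the kinases, motors and checkpoint proteins of mitosis. A fixed list of 45 mouse symbols was matched through the Ensembl gene IDs of the deposited table, and all 45 were found among its 47633 genes. They were divided by role into 15 genes of G1 and G1/S control, 13 of replication licensing and DNA synthesis, and 17 of G2/M and mitosis. RNA sequencing had been done on total RNA, extracted with Trizol, from cultures of 129S2/SvPas mouse embryonic stem (ES) cells and their derivatives, in 4 libraries. A single library came from cells 2 days after withdrawal of leukaemia inhibitory factor (LIF), the cytokine that keeps mouse ES cells undifferentiated, and its title is simply LIF although that factor had been taken away. Another single library, labelled embryoid body (EB), came from cells 5 days after LIF withdrawal, and 2 libraries (ES 1 and ES 2) came from ES cells kept with LIF. The labels give 1 growth protocol for all of them, in which ES cells sat on a layer of C57/BL6 mouse embryonic fibroblasts arrested with mitomycin C, and they do not say whether those feeder cells were removed before RNA extraction.

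Each derived condition is therefore represented by 1 library, and no label states whether ES 1 and ES 2 are separate cultures, so the p-values reflect just the distance between these samples and that may be technical. Values are FPKM, fragments per kilobase of transcript scaled to the mapped fragments of the library, as the authors deposited them. The depth implied by the lowest values was 18.1 M fragments after LIF withdrawal, 26.4 M in the library labelled embryoid body, and 31.5 and 26.4 M in ES 1 and ES 2. At those depths 3 fragments in a gene of 1 kb correspond to 0.166, 0.113, 0.0954 and 0.113 FPKM in the same order, limits that cover counting error only; the lowest member, Cdkn2a, stood at 1.99 FPKM or more in every library. The embryoid body label was not borne out by 14 germ-layer markers. Their summed level was 10.3 FPKM in the library so labelled, against 19.5 FPKM after LIF withdrawal and 16.8 and 15.9 FPKM in ES 1 and ES 2. Nes alone was at 2.11 FPKM in that library, against 6.49 FPKM after LIF withdrawal and 7.11 and 6.92 FPKM in ES 1 and ES 2. Of the 6 markers that passed the filter on low values, 2 lay above both ES libraries there (background 37.6% of all genes past that filter) and 4 below (background 42.9%). The summed level of 10 ES cell markers was 2706 FPKM in that library, against 2147 FPKM after LIF withdrawal and 2078 and 2067 FPKM in ES 1 and ES 2. These markers were mixed in that library, with 6 above both ES libraries (background 37.6%) and 3 below (background 42.9%). Dppa5a alone was at 805 FPKM after LIF withdrawal and 1136 FPKM in the EB library, against 561 and 577 FPKM in ES 1 and ES 2, whereas Lin28a was at 48.1 FPKM after LIF withdrawal and 32.1 FPKM in the EB library, against 76.2 and 77.3 FPKM in ES 1 and ES 2. The 5-day library is called here the library labelled embryoid body, or the EB library. Summed fibroblast feeder markers (20 genes) reached 723 FPKM after LIF withdrawal and 444 FPKM in the EB library, against 466 and 464 FPKM in ES 1 and ES 2, where Lum was at 0 in ES 2. Summed smooth-muscle contractile markers (5 genes) reached 435 FPKM after LIF withdrawal and 12.0 FPKM in the EB library, against 163 and 175 FPKM in ES 1 and ES 2. Of the 19 feeder markers that passed the filter on low values, 18 lay above both ES libraries after LIF withdrawal (background 48.4%). In the EB library 8 lay above (background 37.6%) and 8 below them (background 42.9%).

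In most somatic cells D-type cyclins with CDK4 and CDK6 begin to phosphorylate the retinoblastoma protein, cyclin E with CDK2 completes the step, and the freed E2F factors switch on genes for DNA replication. During G1 the licensing factors CDC6 and CDT1 load the MCM2-7 helicase onto replication origins, and geminin blocks CDT1 once replication has begun. Genes of G2 and mitosis are kept silent by the DREAM complex at an element called CHR and are later switched on there by MYBL2 and FOXM1; mouse ES cells are known for a short G1 phase and for high cyclin E activity through much of the cycle.

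The classes differ in the DNA letters around the starts of their genes, which is why some promoters are shown here before the expression values. RefSeq promoter sequences on GRCm38.p6, from 250 bases before to 50 bases after the gene start, were found for 36 of the 45 genes, and Ccnd1, Ccnd2, Ccne2, Rb1, Mcm4, Gmnn, Ccna2, Aurkb and Foxm1 had no entry. The E2F letters searched were TTTGGCGC, TTTCCCGC, TTTCGCGC and TTTGCCGC, the CHR letters were TTTGAA and TTCGAA, and the third motif was CCAAT, the box bound by NF-Y, each on both strands. E2F matches can overlap each other, as they do in Mcm5 and Mcm6. The 160 bases just before the start of 3 genes with E2F letters follow, with Mcm5 at chr8:75109349-75109508 (plus strand), Mcm6 at chr1:128359706-128359865 (minus strand) and Rbl1 at chr2:157204535-157204694 (minus strand). All are printed 5′ to 3′ along the gene, and capitals mark matches to any of the 3 motifs.
Mcm5: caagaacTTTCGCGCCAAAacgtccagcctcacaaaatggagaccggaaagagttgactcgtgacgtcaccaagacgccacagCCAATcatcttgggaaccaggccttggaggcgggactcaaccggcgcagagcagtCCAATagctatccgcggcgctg
Mcm6: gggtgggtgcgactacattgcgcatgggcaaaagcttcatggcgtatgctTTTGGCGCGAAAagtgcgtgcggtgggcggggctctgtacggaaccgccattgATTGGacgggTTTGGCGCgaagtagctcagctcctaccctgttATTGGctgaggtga
Rbl1: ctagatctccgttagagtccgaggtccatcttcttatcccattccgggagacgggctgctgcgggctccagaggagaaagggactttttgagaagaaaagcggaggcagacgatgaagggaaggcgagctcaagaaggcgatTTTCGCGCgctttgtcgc

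For the mitotic genes Cdc20 and Kif11 the capitals mark CHR and CCAAT letters, and Cdk1 carries both of these and E2F letters. Cdc20 lies at chr4:118437344-118437503 (minus strand), Kif11 at chr19:37376222-37376381 (plus strand) and Cdk1 at chr10:69352913-69353072 (minus strand). E2f3, at chr13:29986064-29986223 (minus strand), is shown because it is a G1 gene that also holds all 3 motifs.
Cdc20: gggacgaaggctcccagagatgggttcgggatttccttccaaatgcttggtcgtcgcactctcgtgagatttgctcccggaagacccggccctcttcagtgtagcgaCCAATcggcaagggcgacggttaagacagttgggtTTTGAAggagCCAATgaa
Kif11: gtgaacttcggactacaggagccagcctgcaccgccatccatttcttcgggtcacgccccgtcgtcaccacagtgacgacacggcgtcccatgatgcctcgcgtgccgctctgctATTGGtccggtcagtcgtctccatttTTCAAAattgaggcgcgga
Cdk1: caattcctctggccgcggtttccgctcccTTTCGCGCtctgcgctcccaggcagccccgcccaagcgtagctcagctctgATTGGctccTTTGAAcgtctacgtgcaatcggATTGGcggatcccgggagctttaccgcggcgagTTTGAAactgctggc
E2f3: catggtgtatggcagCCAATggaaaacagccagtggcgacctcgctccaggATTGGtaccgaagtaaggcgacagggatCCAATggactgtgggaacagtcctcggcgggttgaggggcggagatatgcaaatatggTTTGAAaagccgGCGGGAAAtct

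E2F letters stood in 6 of the 11 replication promoters (54.5%), those of Cdc6, Cdt1, Mcm3, Mcm5, Mcm6 and Mcm7. They stood in 4 of 11 promoters of the G1 class (36.4%), those of Cdk2, Cdkn2a, E2f3 and Rbl1, and in 1 of 14 mitotic promoters (7.14%), that of Cdk1. Over all 27025 genes of the promoter table the share was 2.6%, and over the 9681 protein-coding genes that passed the expression filter it was 4.88%. CHR letters were distributed the other way, with 11 of 14 mitotic promoters (78.6%) against 2 of 11 replication promoters (18.2%), 2 of 11 promoters of the G1 class (18.2%) and 21.7% of all genes. All 11 mitotic promoters with CHR letters also held CCAAT, a combination found in 9.65% of all genes. CCAAT alone stood in 12 of 14 mitotic promoters (85.7%), 8 of 11 replication promoters (72.7%), 5 of 11 promoters of the G1 class (45.5%) and 41.1% of all genes. Further genes of the same pathways, outside the 45, had E2F letters in 11 of 35 replication promoters (31.4%) and CHR letters in 24 of 33 mitotic promoters (72.7%). These counts take in matches after the gene start. The only CHR letters of Aurka, Bub1, Cenpa and Plk1 and the only E2F letters of Cdt1 and Mcm3 lie there. A match is a run of letters and not a measured binding site, and the RNA data do not bear on occupancy.

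**Figure D1:**
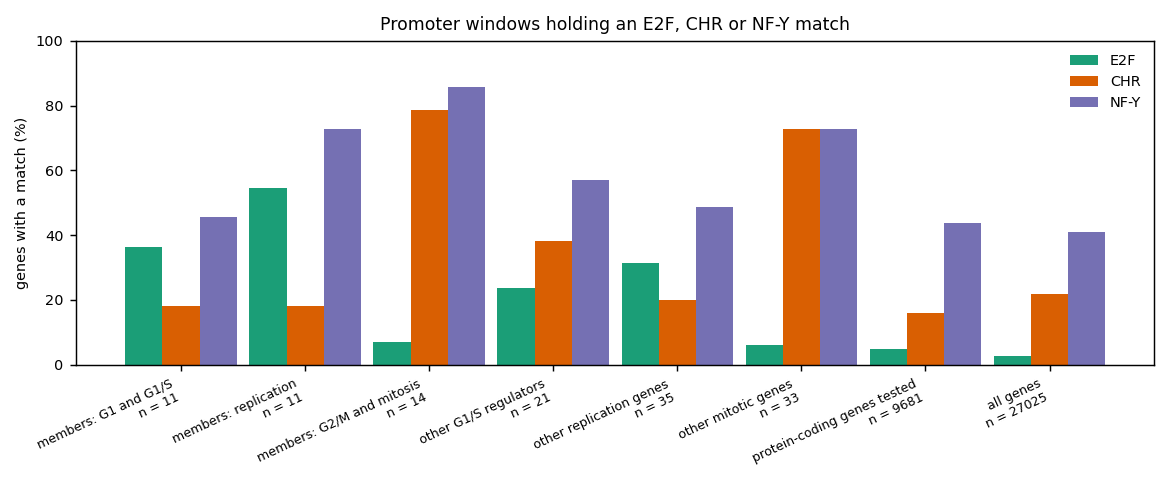
Share of promoters (percent, y axis from 0) that hold E2F, CHR or CCAAT letters (named NF-Y in the legend) in each class of the 45 genes, in the 3 further lists of cell cycle genes, in protein-coding genes tested and in all genes of the RefSeq table. Among the classes, E2F letters are most frequent in replication promoters at 54.5% and CHR letters in mitotic promoters at 78.6%.

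Most transcripts of this machinery were abundant in all 4 libraries. In ES cells the mean levels ran from 473 FPKM for Cdk4 (458 and 487 FPKM in ES 1 and ES 2) down to 2.09 FPKM for Cdkn2a, and 99.1% of tested genes lay below Cdk4. After Cdk4 the order was Top2a with a mean of 396 FPKM, Pcna with 294 FPKM, Mcm7 with 223 FPKM and Ccnb1 with 221 FPKM. The last 2 do not differ beyond their spread, since the SD over the 2 ES libraries was 24.4 FPKM for Mcm7 and 12.9 FPKM for Ccnb1. At the low end stood E2f1, Ccne2, Rb1, Rbl2, Rbl1 and Cdkn2a, with means of 11.9, 11.3, 7.96, 7.44, 7.09 and 2.09 FPKM, a group made up of an E2F factor, an E cyclin, the retinoblastoma family and a CDK inhibitor locus. The median level in the G1 class was 15.8 FPKM after LIF withdrawal and 15.9 FPKM in the EB library, against 21.0 and 19.6 FPKM in ES 1 and ES 2. For replication genes it was 109 FPKM after LIF withdrawal and 99.0 FPKM in the EB library, against 105 and 106 FPKM in ES 1 and ES 2. The corresponding median for mitotic genes was 80.0 FPKM after LIF withdrawal and 78.4 FPKM in the EB library, against 87.0 and 94.6 FPKM in ES 1 and ES 2.

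**Figure D2:**
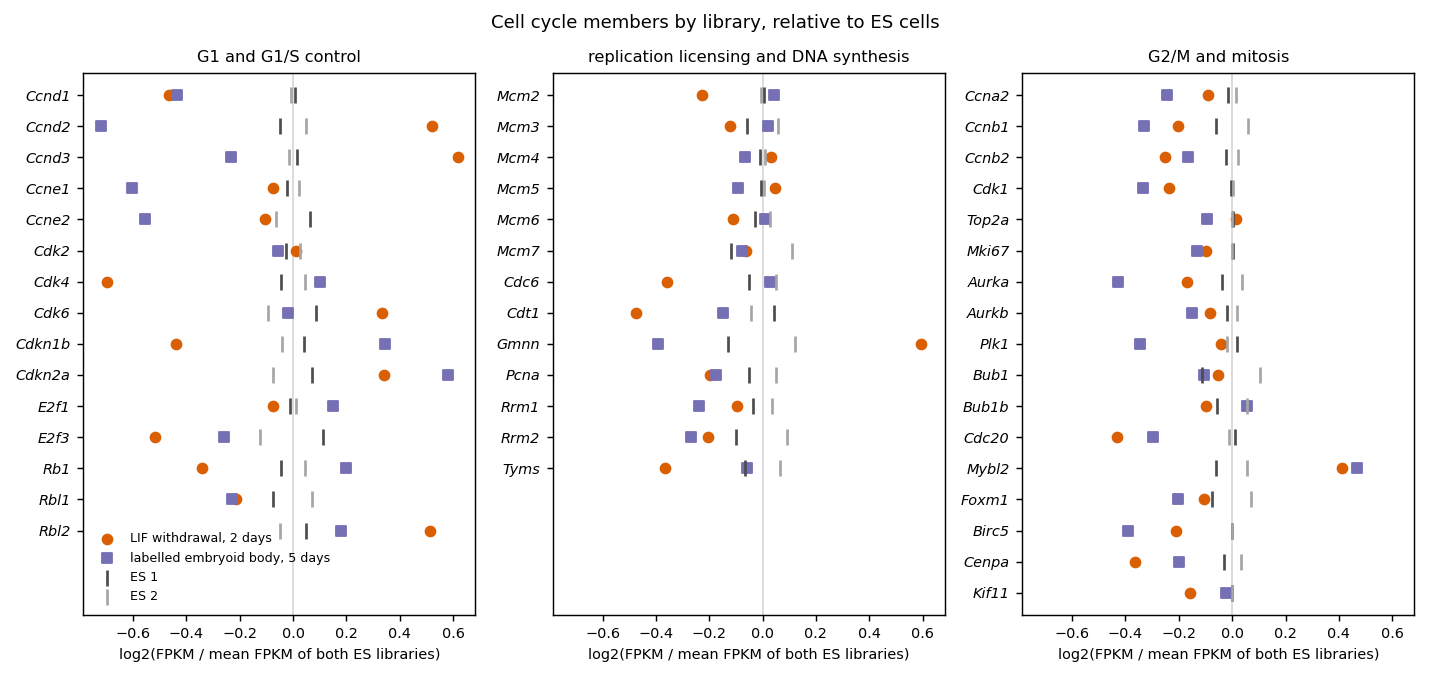
Log2 ratio of each gene's FPKM to its mean over both ES libraries (x axis), in 3 panels by class, with orange circles for LIF withdrawal, purple squares for the library labelled embryoid body and short bars for ES 1 and ES 2. Most mitotic points of the derived libraries lie left of both ES bars (14 of 17 genes in each library), and the G1 class is spread to both sides, with Cdk4 leftmost and Ccnd3 rightmost after LIF withdrawal.

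None of the 45 genes was called after LIF withdrawal or in the EB library by limma, where a call needs a Benjamini-Hochberg adjusted p under 0.05 over all 15676 tested genes and a log2 change of at least 1. Among all tested genes, 7.32% were called higher and 0.357% lower after LIF withdrawal, and 0.396% were called higher and 0 lower in the EB library. Among the 12359 protein-coding ones, to which all 45 belong, the shares were 2.77% and 0.267% after LIF withdrawal and 0.0485% and 0 in the EB library. At an unadjusted p under 0.05, limma counted 16 of the 45 after LIF withdrawal (background 37.2%) and 15 in the EB library (background 27.7%). Neither library had a gene of the 45 at least 2-fold from both ES libraries, a size reached by 12.4% (above) and 2.88% (below) of tested genes after LIF withdrawal and by 4.78% and 3.23% in the EB library. Of the protein-coding ones, 6.72% (above) and 1.6% (below) reached it after LIF withdrawal, and 3.18% and 2.5% in the EB library. Levels and differences are therefore given gene by gene, and the words rose and fell are kept for an adjusted p under 0.05, whatever the size, in this fit.

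A p that misses the threshold in that fit does not show equal levels. The same fit was also restricted to strand-clear genes, those clear of any gene on the opposite strand. Their exons also had to total 1000 nt or more, and their type had to be lncRNA (long non-coding RNA) or protein-coding. This set held 6808 genes and 27 of the 45. Which of these limits moved its passes and background shares was not tested. The restricted fit too called none of the 27 at 2-fold. Of its genes, 2.44% (higher) and 0.602% (lower) were called after LIF withdrawal and 1.53% and 0.778% in the EB library. At adjusted p under 0.05 and any size it passed Mybl2 as higher (background 12.7%) and Cdkn1b, Cdt1 and Cenpa as lower (background 9.28%) after LIF withdrawal. It passed, in the EB library, Mybl2 as higher (background 6.52%) and Ccne1, Cdk1, Aurka and Birc5 as lower (background 7.77%). Its adjusted p was 0.0482 for Mybl2, 0.0381 for Cdkn1b, 0.0324 for Cdt1 and 0.0396 for Cenpa after LIF withdrawal. For the EB library it was 0.0498 for Mybl2, 0.0315 for Ccne1, 0.0465 for Cdk1, 0.0449 for Aurka and 0.0437 for Birc5. Ccnd1 and Ccnd3 overlap genes on the other strand and were not in it.

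The only genes of the 45 with an adjusted p under 0.05 over all tested genes in a comparison with ES cells were 2 D cyclins, activators of CDK4 and CDK6 at the entry into the cycle. In GENCODE M21 on mm10, Ccnd1 lies at chr7:144929931-144939925, Ccnd2 at chr6:127125162-127152193 and Ccnd3 at chr17:47505051-47599691. Ccnd1 stood at 80.0 FPKM after LIF withdrawal and 81.7 FPKM in the EB library, against 111 and 109.9 FPKM in ES 1 and ES 2. Both derived libraries lay below both ES libraries, as did 36.6% of tested genes after LIF withdrawal and 42.9% in the EB library. The log2 change was -0.46 ± 0.02 (SE) after LIF withdrawal, with an adjusted p of 0.0438 from limma, so Ccnd1 fell there by less than 2-fold. That pass was lost with a filter of 5 FPKM (adjusted p of 0.0656), with median-of-ratios scaling (0.0513) and without the trend (0.0557), where the log2 change was between -0.49 and -0.46. The EB library gave -0.43 ± 0.02, with an adjusted p of 0.139. Without regard to the size of the change, 1.15% of tested genes fell at adjusted p under 0.05 after LIF withdrawal, and Ccnd1 was the only one of the 45 among them.

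Ccnd3 went the other way after LIF withdrawal. Its level was 48.6 FPKM there and 27.0 FPKM in the EB library, against 32.0 and 31.4 FPKM in ES 1 and ES 2. The LIF withdrawal library was the highest and the EB library the lowest, on opposite sides of the ES pair. Its log2 change after LIF withdrawal was 0.60 ± 0.03, with an adjusted p of 0.044 from limma, so Ccnd3 rose by less than 2-fold. At adjusted p under 0.05 and any size, 8.87% of tested genes and 4.27% of the protein-coding ones rose. Ccnd3 too no longer passed with the 5 FPKM filter (0.0638), with median-of-ratios scaling (0.0569) or without the trend (0.0521), at log2 changes of 0.57 to 0.60. In the EB library the log2 change was -0.22 ± 0.03, with an adjusted p of 0.147. Ccnd2 showed the same order, with 31.2 FPKM after LIF withdrawal and 13.2 FPKM in the EB library, against 21.0 and 22.5 FPKM in ES 1 and ES 2. Its log2 changes were 0.50 ± 0.07 with an adjusted p of 0.0978 after LIF withdrawal and -0.68 ± 0.07 with an adjusted p of 0.139 in the EB library (limma), and neither passed. The summed feeder markers and the summed smooth-muscle markers given above were also highest after LIF withdrawal and lowest in the EB library. The feeder markers were mixed in the EB library, with 8 above and 8 below both ES libraries and a median log2 change of 0.03. The part of both marker sets in the D cyclin levels was not tested. In these bulk libraries fewer cells of a type and less RNA per cell cannot be told apart.

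The make-up of the D cyclin pool differed accordingly. Ccnd1 made up 50.1% of the summed D cyclin level after LIF withdrawal and 67.0% in the EB library, against 67.6% and 67.1% in ES 1 and ES 2. Ccnd3 made up 30.4% after LIF withdrawal and 22.2% in the EB library, against 19.5% and 19.2% in ES 1 and ES 2. For Ccnd2 the shares were 19.5% after LIF withdrawal and 10.9% in the EB library, against 12.8% and 13.8% in ES 1 and ES 2. The sum itself was 159.8 FPKM after LIF withdrawal, close to the 164 FPKM of each ES library, and 122 FPKM in the EB library. After 2 days without LIF the pool thus had almost the same size with less Ccnd1 and more Ccnd2 and Ccnd3, and in the EB library it was smaller with Ccnd1 at its ES share. Of the 45 genes, 18 overlap a gene on the opposite strand, 13 of them in exons. Exons of LTO1, a gene opposite Ccnd1, cover 23.4% of the Ccnd1 exons, and those of Bysl cover 4.11% of the Ccnd3 exons; the strand setting is not given in the sources used here, so reads of such pairs cannot be told apart.

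The E cyclins, partners of CDK2 at the G1/S boundary, were lower in the EB library. Ccne1 was at 88.2 FPKM after LIF withdrawal and 61.2 FPKM in the EB library, against 91.5 and 94.5 FPKM in ES 1 and ES 2. Its log2 change in the EB library was -0.60 ± 0.04, with an adjusted p of 0.139 from limma. Ccne2 was at 10.5 FPKM after LIF withdrawal and 7.69 FPKM in the EB library, against 11.8 and 10.8 FPKM in ES 1 and ES 2, a log2 change of -0.49 ± 0.09 in the EB library with an adjusted p of 0.164. Ccne1 held a steady share of the E cyclin sum, 89.4% after LIF withdrawal and 88.8% in the EB library, against 88.6% and 89.8% in ES 1 and ES 2. Exons of Ints8 on the other strand cover 17.4% of those of Ccne2, and none do so for Ccne1.

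The kinases of G1 differed among themselves. Cdk4, which pairs with D cyclins, was at 291 FPKM after LIF withdrawal and 507 FPKM in the EB library, against 458 and 487 FPKM in ES 1 and ES 2. It was the most abundant G1 kinase in every library and stood below the ES pair after LIF withdrawal and above it in the EB library. Its log2 change was -0.70 ± 0.07 after LIF withdrawal, the lowest of all 45 genes, with an adjusted p of 0.0787 from limma, and 0.10 ± 0.07 in the EB library with an adjusted p of 0.47. Cdk6, the related D cyclin kinase, was at 26.3 FPKM after LIF withdrawal and 20.6 FPKM in the EB library, against 22.2 and 19.6 FPKM in ES 1 and ES 2. The ratio of Cdk4 to Cdk6 was 11.1 after LIF withdrawal and 24.6 in the EB library, against 20.7 and 24.8 in ES 1 and ES 2. Cdk2, the cyclin E and A kinase, differed little, with 28.5 FPKM after LIF withdrawal and 27.2 FPKM in the EB library, against 27.8 and 28.8 FPKM in ES 1 and ES 2. Exons of Tspan31 on the other strand cover 19.7% of the Cdk4 exons.

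The inhibitors of these kinases did not share a direction after LIF withdrawal, while both lay above the ES pair in the EB library. Cdkn1b, which encodes p27, an inhibitor of CDK2 complexes, was at 15.8 FPKM after LIF withdrawal and 27.2 FPKM in the EB library, against 22.0 and 20.8 FPKM in ES 1 and ES 2. It was below the ES pair after LIF withdrawal, with a log2 change of -0.42 ± 0.06 and an adjusted p of 0.0968, and above it in the EB library, with 0.33 ± 0.06 and an adjusted p of 0.161 (limma). Cdkn1b thus had the same order over the libraries as Cdk4, and the ratio of Cdk4 to Cdkn1b was 18.5 after LIF withdrawal and 18.6 in the EB library, against 20.8 and 23.4 in ES 1 and ES 2. Cdkn2a, whose locus encodes the CDK4 inhibitor p16 and the p53 activator p19Arf, was the scarcest of the 45. Its levels rested on an estimated 56 fragments after LIF withdrawal and 97 in the EB library, against 81 and 62 in ES 1 and ES 2. It was at 2.65 FPKM after LIF withdrawal and 3.13 FPKM in the EB library, against 2.20 and 1.99 FPKM in ES 1 and ES 2. Both derived values were above the ES pair, with log2 changes of 0.24 ± 0.08 and an adjusted p of 0.199 after LIF withdrawal, and of 0.42 ± 0.08 and an adjusted p of 0.167 in the EB library (limma).

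The retinoblastoma family, which holds E2F factors in check, was low throughout. Rb1 was at 6.28 FPKM after LIF withdrawal and 9.14 FPKM in the EB library, against 7.72 and 8.20 FPKM in ES 1 and ES 2. Rbl1 (p107) was at 6.12 FPKM after LIF withdrawal and 6.05 FPKM in the EB library, against 6.73 and 7.46 FPKM in ES 1 and ES 2. Rbl2 (p130), the family member typical of resting cells, was at 10.6 FPKM after LIF withdrawal and 8.43 FPKM in the EB library, against 7.69 and 7.18 FPKM in ES 1 and ES 2. The sum of the 3 differed little, at 23.0 FPKM after LIF withdrawal and 23.6 FPKM in the EB library, against 22.1 and 22.8 FPKM in ES 1 and ES 2, while the share of Rbl2 was 46.0% after LIF withdrawal and 35.7% in the EB library, against 34.7% and 31.4%. The log2 change of Rbl2 after LIF withdrawal was 0.45 ± 0.07, with an adjusted p of 0.11 from limma, and genes on the other strand cover 21% of its exons and 14.9% of those of Rb1. E2f1, an activating E2F factor, was at 11.3 FPKM after LIF withdrawal and 13.2 FPKM in the EB library, against 11.8 and 12.0 FPKM in ES 1 and ES 2. E2f3, another activator, was at 13.3 FPKM after LIF withdrawal and 15.9 FPKM in the EB library, against 20.6 and 17.5 FPKM in ES 1 and ES 2, a log2 change of -0.49 ± 0.15 after LIF withdrawal with an adjusted p of 0.194. Both derived libraries were below the ES pair for E2f3, but the ES values themselves lay apart, at a log2 difference of -0.23 for ES 2 minus ES 1, the lowest of the 45.

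**Figure D3:**
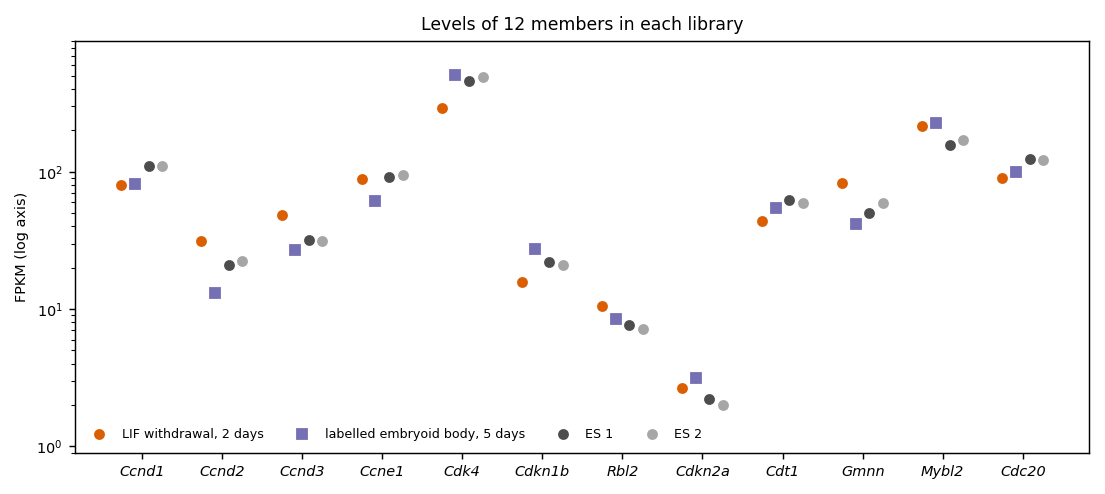
Levels (FPKM, log axis) of 12 cell cycle genes named in the text, with 1 point for each library. For Ccnd2, Ccnd3 and Gmnn the LIF withdrawal point lies above both ES points and the EB point below them, and for Cdk4 and Cdkn1b the order is turned round.

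Most replication genes lay at similar levels in all libraries, and after LIF withdrawal the largest differences were in Gmnn and Cdt1. The 6 subunits of the MCM2-7 helicase summed to 863 FPKM after LIF withdrawal and 905 FPKM in the EB library, against 890.3 and 948 FPKM in ES 1 and ES 2. Mcm7 was the highest and Mcm4 the lowest subunit in every library, 2.63-fold apart after LIF withdrawal and 2.79-fold in the EB library, against 2.61-fold and 3.01-fold in ES 1 and ES 2. Mcm2 was at 132 FPKM after LIF withdrawal and 159 FPKM in the EB library, against 155 and 154 FPKM in ES 1 and ES 2. Its log2 change after LIF withdrawal was -0.23 ± 0.02, the lowest of the subunits, with an adjusted p of 0.079 from limma. Log2 changes of the other 5 subunits ran from -0.12 (Mcm3 and Mcm6) to 0.05 (Mcm5) after LIF withdrawal. Those of all 6 in the EB library ran from -0.10 (Mcm5) to 0.04 (Mcm2). For Mcm7 both derived values, 213 FPKM after LIF withdrawal and 211 FPKM in the EB library, lay between the 205 and 239.8 FPKM of ES 1 and ES 2.

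Mcm3 was at 180.1 FPKM after LIF withdrawal and 199 FPKM in the EB library, against 188 and 204 FPKM in ES 1 and ES 2. Mcm6 was at 149 FPKM after LIF withdrawal and 162 FPKM in the EB library, against 158 and 164 FPKM in ES 1 and ES 2. In both of these subunits the EB value fell between the ES values and the LIF withdrawal value just below them. Mcm4 was at 81.0 FPKM after LIF withdrawal and 75.6 FPKM in the EB library, against 78.7 and 79.7 FPKM in ES 1 and ES 2. Mcm5, whose promoter is printed above, was at 109 FPKM after LIF withdrawal and 99.0 FPKM in the EB library, against 105 and 106 FPKM in ES 1 and ES 2. Mcm4 and Mcm5 had the opposite order to Mcm2, with the LIF withdrawal library on top, at 1.02 and 1.03 times the ES mean.

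Among the licensing factors, which load the helicase, the differences after LIF withdrawal were larger than among its subunits. Cdt1, which brings MCM2-7 to origins, was at 43.7 FPKM after LIF withdrawal and 54.8 FPKM in the EB library, against 62.5 and 58.9 FPKM in ES 1 and ES 2. Gmnn, which encodes its inhibitor geminin, was at 82.4 FPKM after LIF withdrawal and 41.6 FPKM in the EB library, against 49.9 and 59.4 FPKM in ES 1 and ES 2. Cdt1 was below the ES pair in both derived libraries, whereas Gmnn was above it after LIF withdrawal and below it in the EB library. After LIF withdrawal the log2 change of Cdt1 was -0.47 ± 0.06 with an adjusted p of 0.0926, the lowest of the replication class, and that of Gmnn was 0.59 ± 0.16 with an adjusted p of 0.175, the highest of that class (limma). The ratio of Gmnn to Cdt1 was 1.89 after LIF withdrawal and 0.759 in the EB library, against 0.798 and 1.01 in ES 1 and ES 2. Gmnn also differed most between the ES libraries among the 45, by 0.25 on the log2 scale, and neither of its changes against ES cells passed the test. Cdc6, the other loading factor, was at 24.9 FPKM after LIF withdrawal and 32.5 FPKM in the EB library, against 30.8 and 33.0 FPKM in ES 1 and ES 2, a log2 change of -0.35 ± 0.06 after LIF withdrawal with an adjusted p of 0.124.

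Pcna, the sliding clamp of the replicative polymerases, was at 257 FPKM after LIF withdrawal and 261 FPKM in the EB library, against 284 and 305 FPKM in ES 1 and ES 2. Its values are uncertain because a processed copy, Pcna-ps2, was listed at 28.0 FPKM after LIF withdrawal and 30.7 FPKM in the EB library, against 30.9 and 29.5 FPKM in ES 1 and ES 2, and the counting could split reads between them. The ribonucleotide reductase subunits, which make deoxynucleotides, were also below both ES libraries. Rrm1 was at 75.5 FPKM after LIF withdrawal and 68.5 FPKM in the EB library, against 78.7 and 82.8 FPKM in ES 1 and ES 2. Rrm2, the subunit that limits activity in S phase, was at 158 FPKM after LIF withdrawal and 151 FPKM in the EB library, against 169.8 and 194 FPKM in ES 1 and ES 2. Tyms, thymidylate synthase, was at 49.3 FPKM after LIF withdrawal and 61.0 FPKM in the EB library, against 60.7 and 66.5 FPKM in ES 1 and ES 2. The log2 changes of these 4 genes ran from -0.36 (Tyms) to -0.10 (Rrm1) after LIF withdrawal and from -0.27 (Rrm2) to -0.06 (Tyms) in the EB library, and limma passed none of them.

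Mitotic transcripts showed small differences, mostly to the same side in each library. Of the 17 genes, 14 lay below both ES libraries after LIF withdrawal (background 36.6% of tested genes) and 14 in the EB library (background 42.9%). The B cyclins, which drive entry into mitosis with CDK1, were among them. Ccnb1 was at 192 FPKM after LIF withdrawal and 176 FPKM in the EB library, against 212 and 230.2 FPKM in ES 1 and ES 2. Ccnb2 was at 73.8 FPKM after LIF withdrawal and 78.4 FPKM in the EB library, against 86.5 and 89.2 FPKM in ES 1 and ES 2. Cdk1 itself was at 80.0 FPKM after LIF withdrawal and 74.9 FPKM in the EB library, against 94.1 and 94.6 FPKM in ES 1 and ES 2, with log2 changes of -0.23 ± 0.02 (adjusted p of 0.0717) and -0.33 ± 0.02 (adjusted p of 0.139) by limma. Ccna2, the S and G2 cyclin, was at 133 FPKM after LIF withdrawal and 119.6 FPKM in the EB library, against 140.1 and 143 FPKM in ES 1 and ES 2.

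Cdc20, the activator of the anaphase-promoting complex, had the lowest change of the mitotic class after LIF withdrawal. It was at 90.5 FPKM after LIF withdrawal and 99.2 FPKM in the EB library, against 123 and 121 FPKM in ES 1 and ES 2. Its log2 change was -0.43 ± 0.02 after LIF withdrawal, with an adjusted p of 0.0519 from limma, just outside the threshold, and -0.30 ± 0.02 in the EB library with an adjusted p of 0.139. Birc5 (survivin), a subunit of the chromosomal passenger complex, was at 145 FPKM after LIF withdrawal and 128 FPKM in the EB library, against 168 FPKM in both ES libraries. Its partner kinase Aurkb was at 56.6 FPKM after LIF withdrawal and 54.0 FPKM in the EB library, against 59.1 and 60.7 FPKM in ES 1 and ES 2. Aurka, the spindle pole kinase, was at 98.6 FPKM after LIF withdrawal and 82.6 FPKM in the EB library, against 108 and 114 FPKM in ES 1 and ES 2, a log2 change of -0.43 ± 0.05 in the EB library with an adjusted p of 0.144. Plk1, a kinase of mitotic entry and exit, was at 65.8 FPKM after LIF withdrawal and 53.2 FPKM in the EB library, against 68.5 and 66.8 FPKM in ES 1 and ES 2. For Aurka, Plk1 and Birc5 the EB library was the lowest of the 4. Cenpa, the centromeric histone, was at 69.1 FPKM after LIF withdrawal and 77.5 FPKM in the EB library, against 87.0 and 90.9 FPKM in ES 1 and ES 2, so for Cenpa and Cdc20 the LIF withdrawal library was the lowest.

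Several mitotic genes differed little between libraries. Top2a, the topoisomerase that untangles sister chromatids, was at 399.9 FPKM after LIF withdrawal and 370.5 FPKM in the EB library, against 396 and 395 FPKM in ES 1 and ES 2; its log2 change of 0.01 after LIF withdrawal became -0.02 with median-of-ratios scaling. Mki67, the proliferation antigen Ki-67, was at 51.3 FPKM after LIF withdrawal and 50.0 FPKM in the EB library, against 54.9 and 54.8 FPKM in ES 1 and ES 2. The spindle checkpoint kinase Bub1 was at 89.4 FPKM after LIF withdrawal and 86.2 FPKM in the EB library, both within the 85.8 and 99.9 FPKM of ES 1 and ES 2. Bub1b (BubR1), of the same checkpoint, was at 60.0 FPKM after LIF withdrawal and 66.8 FPKM in the EB library, against 61.7 and 66.8 FPKM in ES 1 and ES 2. Kif11, the motor that separates spindle poles, was at 53.2 FPKM after LIF withdrawal and 58.3 FPKM in the EB library, against 59.3 FPKM in both ES libraries.

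The transcription factors that act on the mitotic promoters parted from each other. Mybl2 (B-MYB) was at 216 FPKM after LIF withdrawal and 225 FPKM in the EB library, against 156 and 169 FPKM in ES 1 and ES 2. It was above both ES libraries in each derived library, with log2 changes of 0.41 ± 0.08 (adjusted p of 0.127) after LIF withdrawal and 0.46 ± 0.08 (adjusted p of 0.162) in the EB library by limma, the highest of the mitotic class in both. Foxm1, its partner at CHR promoters, was at 38.8 FPKM after LIF withdrawal and 36.3 FPKM in the EB library, against 39.6 and 43.9 FPKM in ES 1 and ES 2.

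Set side by side, the 3 classes had similar small medians and different spreads. After LIF withdrawal the median log2 change was -0.08 for the G1 class, -0.12 for replication genes and -0.10 for mitotic genes, against 0.04 over all tested genes. Median absolute changes were 0.32, 0.20 and 0.16 in that order of classes, against 0.26 over all tested genes. In the EB library the median log2 change was -0.05 for the G1 class, -0.07 for replication genes and -0.19 for mitotic genes, against -0.01 over all tested genes, and the median absolute changes were 0.22, 0.07 and 0.20, against 0.20 over all tested genes. The differences between the ES libraries themselves had medians of -0.01 for the G1 class, 0.09 for replication genes and 0.04 for mitotic genes (ES 2 minus ES 1, log2), so the replication medians were about as large as the distance between the ES libraries.

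After LIF withdrawal 32 of the 45 genes lay below both ES libraries, 9 of 15 in the G1 class, 9 of 13 replication genes and 14 of 17 mitotic genes. The background was 36.6% of all tested genes and 39.7% of the protein-coding ones, and 10 of the 45 lay above both (background 48.4%). In the EB library 29 of the 45 lay below both ES libraries, 8 of 15 in the G1 class, 7 of 13 replication genes and 14 of 17 mitotic genes, where the background was 42.9% of all tested genes and 48.4% of the protein-coding ones. The 9 genes above both (background 37.6%) became 15 when ES 2 was left out. Both comparisons share the ES libraries, so their counts are not independent. Each library's changes at a smaller size, chosen after the data were seen, were also counted. After LIF withdrawal Ccnd2, Ccnd3, Rbl2, Gmnn and Mybl2 were at least 1.25-fold above both ES libraries (5 genes, background 25.9%) and Ccnd1, Cdk4, Cdkn1b, E2f3, Cdt1, Cdc20 and Cenpa at least as far below (7 genes, background 13.5%). Cdkn2a and Mybl2 were that far above in the EB library (2 genes, background 15.4%) and Ccnd1, Ccnd2, Ccne1, Ccne2, Cdk1, Aurka, Plk1 and Birc5 that far below (8 genes, background 14.9%).

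**Figure D4:**
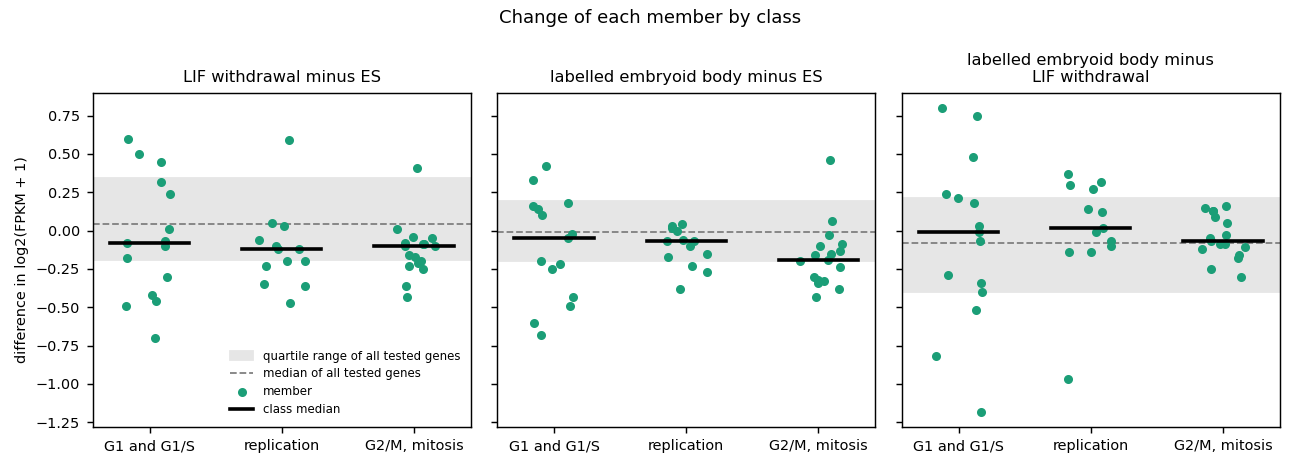
Difference in log2(FPKM + 1) of each gene, by class, for LIF withdrawal minus ES cells, the EB library minus ES cells and the EB library minus LIF withdrawal (a panel each); each point is a gene, black bars are class medians, and the dashed line and grey band are the median and quartile range of all tested genes. The mitotic median is -0.10 after LIF withdrawal and -0.19 in the EB library, and the G1 class is spread from -0.70 (Cdk4) to 0.60 (Ccnd3) after LIF withdrawal.

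The derived libraries were also set against each other, the spread of the ES pair standing in for theirs. No gene of the 45 was called by limma, where 0.785% of tested genes were called higher and 7.1% lower in the EB library than after LIF withdrawal. Of the protein-coding ones, 0.421% were called higher and 2.76% lower. At unadjusted p under 0.05 there were 14 of the 45 (background 36.8%). The G1 class held the extremes. Ccnd2 was 2-fold or more lower in the EB library, at 13.2 FPKM there and 31.2 FPKM after LIF withdrawal, the only gene of the 45 past that size (background 14.3%), and none was 2-fold or more higher there (background 8.18%). Its log2 difference was -1.18 ± 0.08, and its adjusted p of 0.0593 became 0.0273 when only protein-coding genes were tested. Ccnd3, at 27.0 FPKM in the EB library and 48.6 FPKM after LIF withdrawal, had a log2 difference of -0.82 ± 0.03 with an adjusted p of 0.0359 (limma). It was thus lower in the EB library by less than 2-fold. At that threshold and any size, 8.47% of tested genes and 3.99% of the protein-coding ones were lower. None of the 45 was higher at that threshold (background 1.54%). The pass of Ccnd3 was lost with the 5 FPKM filter (0.0539) and with median-of-ratios scaling (0.0519).

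The restricted fit called none of the 27 at 2-fold (background 1.31% higher and 3.13% lower). At any size, it passed Ccne1 (adjusted p of 0.0284) and Gmnn (0.0357) as lower in the EB library (background 13.1%) and Cdkn1b (0.0237) as higher (background 8.49%). Gmnn was at 41.6 FPKM in the EB library and 82.4 FPKM after LIF withdrawal, a log2 difference of -0.97 ± 0.19 with an adjusted p of 0.129 (limma). Cdk4 was higher in the EB library, at 507 FPKM there and 291 FPKM after LIF withdrawal, with a log2 difference of 0.80 ± 0.08 and an adjusted p of 0.0803. Cdkn1b was also higher, at 27.2 FPKM in the EB library and 15.8 FPKM after LIF withdrawal, with 0.75 ± 0.06 and an adjusted p of 0.0714. Without regard to size, 20 of the 45 were higher in the EB library (background 42.1%) and 25 lower (background 57.4%), among them 11 of the 17 mitotic genes. Median log2 differences were -0.01 for the G1 class, 0.02 for replication genes and -0.07 for mitotic genes, against -0.08 over all tested genes. The median absolute difference was 0.34 for the G1 class, 0.14 for replication genes and 0.12 for mitotic genes, against 0.30 over all tested genes. At 1.25-fold or more, Cdk4, Cdkn1b, Rb1, Cdc6 and Cdt1 were higher in the EB library (5 genes, background 21.2%) and Ccnd2, Ccnd3, Ccne1, Ccne2, Cdk6, Rbl2 and Gmnn lower (7 genes, background 32.9%), and none of the 17 mitotic genes was in either group.

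Other genes of the same pathways were read in 3 further lists. Of 26 other G1/S regulators 25 passed the filter, of 44 other replication genes 43, and of 43 other mitotic genes 42; limma called 0 of them in any of the 3 comparisons. At unadjusted p under 0.05 the counts were 9, 13 and 8 after LIF withdrawal (background 37.2%) and 9, 8 and 10 in the EB library (background 27.7%). Their median log2 changes were -0.08, -0.06 and -0.05 after LIF withdrawal and -0.04, -0.08 and -0.08 in the EB library. After LIF withdrawal 14, 26 and 23 of them lay below both ES libraries (background 36.6%) and 9, 11 and 13 above (background 48.4%). In the EB library 13, 26 and 28 lay below (background 42.9%) and 10, 7 and 8 above (background 37.6%).

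The genes of these lists at least 2-fold from both ES libraries were all CDK inhibitors. Cdkn1c, which encodes p57, was at 19.4 FPKM after LIF withdrawal and 12.8 FPKM in the EB library, against 36.7 and 37.6 FPKM in ES 1 and ES 2, and overlaps Gm44732 on the other strand. It fell after LIF withdrawal, with a log2 change of -0.90 ± 0.03 and an adjusted p of 0.0311 (limma), and in the EB library it was more than 2-fold below both ES libraries, with -1.46 ± 0.03 and an adjusted p of 0.117. Cdkn2b, which encodes the CDK4 and CDK6 inhibitor p15, was at 5.03 FPKM after LIF withdrawal and 4.12 FPKM in the EB library, against 2.11 and 1.83 FPKM in ES 1 and ES 2, with a log2 change of 1.02 ± 0.10 and an adjusted p of 0.0782 after LIF withdrawal. Cdkn2d, which encodes p19Ink4d, was at 1.51 FPKM after LIF withdrawal and 3.07 FPKM in the EB library, against 3.73 and 3.36 FPKM in ES 1 and ES 2. These inhibitors thus lay on different sides of the ES pair, as Cdkn1b and Cdkn2a did after LIF withdrawal. In the EB library Cdkn1b and Cdkn2a both lay above it.

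In the replication list Orc2, a subunit of the origin recognition complex, was at 192 FPKM after LIF withdrawal and 85.3 FPKM in the EB library, against 110.4 and 90.2 FPKM in ES 1 and ES 2, and overlaps Nif3l1 on the other strand. Rfc3, of the clamp loader, was at 28.6 FPKM after LIF withdrawal and 44.0 FPKM in the EB library, against 43.0 and 47.1 FPKM in ES 1 and ES 2. Tk1 (thymidine kinase) was at 63.9 FPKM after LIF withdrawal and 37.1 FPKM in the EB library, against 51.0 and 64.4 FPKM in ES 1 and ES 2. Pold3, of DNA polymerase delta, was at 44.4 FPKM after LIF withdrawal and 32.3 FPKM in the EB library, against 35.6 and 42.9 FPKM in ES 1 and ES 2. In the mitotic list Smc4, a condensin subunit, was at 69.6 FPKM after LIF withdrawal and 91.9 FPKM in the EB library, against 96.1 FPKM in both ES libraries, and it fell after LIF withdrawal with a log2 change of -0.46 ± 0.02 and an adjusted p of 0.0398 (limma), a pass lost with the 5 FPKM filter (0.0638) and without the trend (0.0536). Bub3, a checkpoint protein, was at 72.2 FPKM after LIF withdrawal and 88.1 FPKM in the EB library, against 89.9 and 97.0 FPKM in ES 1 and ES 2. Ect2, which directs cytokinesis, was at 153 FPKM after LIF withdrawal and 104 FPKM in the EB library, against 138 and 172 FPKM in ES 1 and ES 2. Hmmr, a spindle protein, was at 80.8 FPKM after LIF withdrawal and 96.2 FPKM in the EB library, against 71.2 and 76.7 FPKM in ES 1 and ES 2.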

How the data were processed

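Total RNA libraries (VAHTS kit, per the labels' protocols) were analysed from deposited FPKM, a level for each gene in each library as the authors computed it. Per the submitters' processing notes, the tools were Trimmomatic 0.36, STAR and Cufflinks with build mm10; options, annotation release and strandedness were not given in the sources used here. Each FPKM value is scaled to the mapped fragments of its library. The 10 highest genes took 44.7% of the summed FPKM after LIF withdrawal, 17.4% in the EB library and 15.5% and 9.8% in ES 1 and ES 2. FPKM is per length, so these are not shares of fragments. Median-of-ratios factors lay between 0.977 and 1.023, so no rescaling was applied.

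Symbols, positions and overlaps came from GENCODE M21: ignoring versions, 47219 of 47633 IDs had an entry (82.1% with an equal version) and 414 had none. Depth came from genes of at least 3000 nt, taking the commonest small product of FPKM and length as 1 fragment. The 15676 genes reaching 1 FPKM in any library entered the test, on log2(FPKM + 1), a pseudocount of 1 that understates changes of low genes, with limma 3.58.1 in R 4.3.3 (moderated with a trend, all 4 libraries, 1 residual degree of freedom from the ES pair, so single libraries are assumed to vary like it). Calls needed a Benjamini-Hochberg adjusted p under 0.05 and a log2 change of at least 1, and a size rule without a test asked for 2-fold from both ES libraries. The steps were run on simulated data with noise drawn from the ES pair, which cannot show whether the single libraries vary like it. Figures and summaries used Python 3.11.15, numpy 2.4.6, pandas 2.3.3 and matplotlib 3.10.9.

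All 45 members are named. From the other pathway lists the text names genes past the call or the size rule and otherwise the 2 largest changes per list and comparison with ES cells; Claspn and Sgol1 did not match. The members and lists were chosen with earlier results of these data known. Alternatives were another pseudocount, filter and scaling, no trend, other gene sets and each ES library left out.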

Additional observations from a re-analysis of the deposited data

Results flagged for a closer look

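For the genes given here the LIF withdrawal library and the library labelled embryoid body lay on opposite sides of both ES libraries, and the difference between them was tested with limma over all 15676 tested genes. They were picked because these libraries lay apart, so the p-values are not independent of that choice. The EB library minus LIF withdrawal was -1.18 on the log2 scale for Ccnd2 (adjusted p of 0.0593), -0.82 for Ccnd3 (0.0359), -0.97 for Gmnn (0.129), 0.80 for Cdk4 (0.0803) and 0.75 for Cdkn1b (0.0714). It was 0.48 for Rb1 (0.114), 0.27 for Mcm2 (0.0798), 0.21 for E2f1 (0.135) and 0.15 for Bub1b (0.351). For Mcm5, Top2a and Mcm4 it was -0.14 (0.124), -0.11 (0.244) and -0.10 (0.174). Among them, only Ccnd3 had an adjusted p under 0.05 in that fit, and it missed the threshold with a filter of 5 FPKM (0.0539) and with median-of-ratios scaling (0.0519).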

How the results depend on the processing

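Counts of called genes were 0 in the 3 comparisons and stayed 0 in all but these alternatives. The EB library against LIF withdrawal gave 1 call, Ccnd2, with no filter on low values and with protein-coding genes alone (adjusted p of 0.0273). Counting an adjusted p under 0.05 at any fold, chosen after seeing the data, gave 2 genes for LIF withdrawal against ES and 1 for the EB library against LIF withdrawal. Both counts became 0 with a filter of 5 FPKM and with median-of-ratios scaling, and the first also without the trend; the cause was not tested. With no filter they were 3 and 2, with protein-coding genes alone 6 and 5, and with strand-clear genes 4 and 3 of 27. Shares over all genes were not counted for the fits with no filter and with protein-coding genes alone. Their counts, and the Ccnd2 call in them, therefore cannot be set against a background. For the EB library against ES the count was 0 except with strand-clear genes, where it was 5 of 27. A size rule of 1.25-fold, also chosen after seeing the data, moved the counts to 12 for LIF withdrawal, 10 for the EB library and 12 for the EB library against LIF withdrawal.

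With each ES library left out in turn, genes above both ES libraries in the EB library numbered 10 to 15. The G1 class median ran from -0.08 to -0.06 for LIF withdrawal and from -0.10 to -0.08 for the EB library, and the mitotic median from -0.16 to -0.10 and from -0.23 to -0.14. Under median-of-ratios scaling the G1 medians were -0.11 for LIF withdrawal, -0.02 for the EB library and 0.04 between them, and the mitotic medians -0.13, -0.16 and -0.00. That scaling turned the sign of 8 differences, none past the test: -0.02 for Cdk2 and Top2a after LIF withdrawal, 0.01 for Cdk6 and Kif11 in the EB library, and 0.04 for Rbl1, 0.05 for Mcm7, 0.03 for Mki67 and 0.01 for Bub1 between the derived libraries; the cause was not tested. No paired analysis was possible because each derived condition has 1 library without a replicate number. Each member had at least 56 estimated fragments in every library. Counting error weighs most on Cdkn2a, which had that lowest number after LIF withdrawal. The single library per derived condition limits every member.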
